A study of Mus musculus with 6 samples.

Results

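The promoters described here belong to 8 genes at which Ezh2 signal was lower after Brca1 siRNA than after control siRNA in R1 mouse embryonic stem (ES) cells: Catsper3, Adat3, Scamp4, Dhrs1, Itpkc, Elmo2, Timm13 and Mbd1. They were picked from 9612 genes that the authors' peak lists name and that had at least 5 probes near a listed start; the lists name 9614 genes in all. The R1 pair of arrays chose them, so the R1 difference is given as a description with no test. AB2.2 against PL2F8 is the comparison that the rule of choice did not use, though earlier results of these data were known by then. Adat3 and Scamp4 start 2 bp apart on the same strand and share all 26 probes, so the 8 genes stand for 7 separate measurements.

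The study asked how loss of Brca1, a tumour suppressor gene of DNA repair, affects where Ezh2 is found on promoters. Chromatin was immunoprecipitated with an antibody against Ezh2, amplified by ligation-mediated PCR, labelled with Cy5 and hybridised with Cy3-labelled input DNA of the same cells to a tiled promoter array, and no array had its dyes exchanged. The R1 line [ATCC SCRC-1011] was harvested 48 hours after transfection with control siRNA or with Brca1 specific siRNA, 1 array each. The AB2.2 line is Brca1 wild-type and PL2F8 is Brca1 deficient. The labels give AB2.2 and PL2F8 the strain 129/SvEvBrd-Hprtb-m2, and each had 2 arrays, while no strain was used here for R1. All lines grew on gelatin with serum and LIF. PL2F8 is a single line, so what it owes to Brca1 and what it owes to its own history cannot be told apart. The labels do not say that duplicates were separate cultures. The p-values therefore set a difference only against the scatter of these arrays, and that scatter may be technical.

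Ezh2 is the methyltransferase subunit of Polycomb repressive complex 2, which methylates lysine 27 of histone H3. In ES cells the complex is best known from the CG-rich promoters of developmental regulators, which it holds in a repressed state. Genes with housekeeping roles usually carry little of it.

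Values are log2 ratios of immunoprecipitated over input DNA, centred on the median of each array and averaged over the probes within 2 kb of the listed starts, and a difference of 1 is a doubling. For scale, a list of 20 developmental Polycomb targets had median levels of 3.10 (control siRNA) and 3.16 (Brca1 siRNA) in R1, 2.72 and 2.53 in AB2.2, and 3.07 and 2.92 in PL2F8. Of 12 listed ES cell pluripotency genes, 7 were measured, with medians between 0.10 and 0.46 on the 6 arrays. The 7 measured of 8 fibroblast genes had medians between 0.96 and 1.56. These arrays measure protein at DNA, so they give no RNA level of any marker, and the loss of Brca1 cannot be checked on them. Across the 9612 genes the duplicates correlated at r = 0.989 for AB2.2 and 0.998 for PL2F8, and the R1 pair at 0.948. These correlations are across genes, which are not independent replicates.

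The promoter sequences of 7 of the 8 genes were found by symbol in a table from RefSeq on build GRCm38.p6, with 250 bases before and 50 after the start, 5′ to 3′ on the strand of the gene. No source used here gives the build of the array files, so these windows were not placed on the probes. Because Polycomb is known from CG-rich promoters, 4 windows that differ widely in CG content are shown, with every CG in capitals. CG reads the same on both strands and cannot overlap itself.

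Catsper3 (chr13:55784329-55784628, plus strand): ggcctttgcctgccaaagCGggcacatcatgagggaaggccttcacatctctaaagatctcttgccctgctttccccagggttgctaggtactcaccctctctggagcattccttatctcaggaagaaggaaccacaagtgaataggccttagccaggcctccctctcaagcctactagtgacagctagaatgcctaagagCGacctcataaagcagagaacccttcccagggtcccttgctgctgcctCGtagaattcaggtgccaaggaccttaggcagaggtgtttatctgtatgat
Adat3 (chr10:80602630-80602929, plus strand; the window of Scamp4 lies 2 bases further on): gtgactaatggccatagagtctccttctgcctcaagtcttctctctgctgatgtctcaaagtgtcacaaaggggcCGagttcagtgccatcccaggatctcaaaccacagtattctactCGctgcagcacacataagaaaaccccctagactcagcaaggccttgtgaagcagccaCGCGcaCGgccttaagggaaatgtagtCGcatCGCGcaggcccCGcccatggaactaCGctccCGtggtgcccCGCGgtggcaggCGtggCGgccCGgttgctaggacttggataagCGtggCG
Itpkc (chr7:27228568-27228867, minus strand): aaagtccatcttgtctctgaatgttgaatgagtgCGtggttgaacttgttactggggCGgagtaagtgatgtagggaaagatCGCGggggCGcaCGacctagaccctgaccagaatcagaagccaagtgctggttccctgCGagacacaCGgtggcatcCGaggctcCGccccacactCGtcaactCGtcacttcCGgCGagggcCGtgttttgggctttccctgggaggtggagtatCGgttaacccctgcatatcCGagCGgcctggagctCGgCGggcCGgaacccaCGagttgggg
Dhrs1 (chr14:55745635-55745934, minus strand): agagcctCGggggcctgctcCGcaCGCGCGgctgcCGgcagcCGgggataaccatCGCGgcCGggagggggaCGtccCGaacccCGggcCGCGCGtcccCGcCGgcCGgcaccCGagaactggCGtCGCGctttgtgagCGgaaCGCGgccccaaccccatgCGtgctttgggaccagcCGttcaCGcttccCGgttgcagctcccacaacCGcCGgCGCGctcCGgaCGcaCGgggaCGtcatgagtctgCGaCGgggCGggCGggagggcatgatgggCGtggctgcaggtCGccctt

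Catsper3 held 3 CG in 300 bases. Taking a single promoter per gene from the table, 76.2% of 27025 promoters held at least as many. The window of Adat3 and Scamp4 held 18 (30.1% of promoters had at least as many), that of Itpkc 22 (23.3%) and that of Dhrs1 44 (2.19%). Timm13 held 16 (33.5%). Elmo2 has 3 windows in the table with 24, 6 and 8, which could not be paired with its 2 listed starts. The median over the 27025 promoters was 7. The 8 genes therefore included a promoter with few CG and one among the richest in the table.

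On the R1 control array all 8 genes had the highest of their 6 values, where 19% of the 9612 genes did. The choice of the genes used this array, so nothing is read from that count. On the R1 Brca1 siRNA array 7 of the 8 were lower by at least 0.5, against 2.78% of all genes, which is again what the choice asked for. The differences ran from -1.23 at Adat3 and Scamp4, the lowest of all 9612 genes, to -0.42 at Elmo2, which 466 genes reached or passed. The genes next to Elmo2 in that order, one on each side, both had -0.42, so many genes with the same drop were not picked. The median drop of the 8 was -0.88 and the median over all genes was -0.000714. With 1 array a condition, a loss of Ezh2 and the spread between arrays cannot be told apart.

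**Figure D1:**
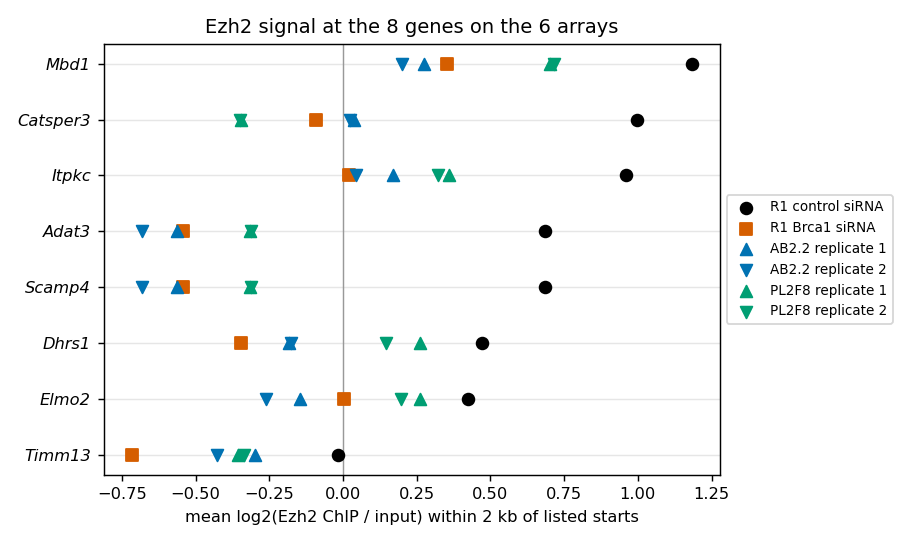
Mean log2 ratio of Ezh2 ChIP over input within 2 kb of the listed starts (x axis) for the 8 genes (y axis), 1 point for each of the 6 arrays. The R1 control array (black) is the highest point of every gene, and the PL2F8 arrays (green) lie above the AB2.2 arrays (blue) at 6 genes, below them at Catsper3 and among them at Timm13.

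The rule of choice did not use the comparison of PL2F8 with AB2.2. Ezh2 signal was higher in PL2F8 than in AB2.2 at Adat3, Scamp4, Dhrs1, Itpkc, Elmo2 and Mbd1, by 0.23 to 0.47. It was lower at Catsper3, by -0.38. Timm13 did not pass the test. Thus 6 of 8 genes were called higher (limma adjusted p under 0.05), where 63.5% of all 9612 genes were, and 1 of 8 was called lower, where 8.5% were. Adat3 and Scamp4 are 1 measurement but are counted separately in these counts, here and below. The arrays themselves did not overlap at 7 genes: both PL2F8 arrays lay above both AB2.2 arrays at 6 (74.1% of all genes) and below them at 1 (14% of all genes). The median difference was 0.31 over the 8 genes and 0.30 over all genes, and 5 of the 8 lay above the latter. None of the 8 was higher by at least 0.5, which 26.5% of all genes were. The share of calls in each direction among the 8 genes was thus near that of the whole table. However, genes entered the table through a listed peak on any array, PL2F8 included, while 7 of the 8 entered through the R1 control array only. The shares compare genes admitted in different ways, so nothing is concluded from their nearness.

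The split of calls over all genes moved with the scaling. Centring on the median called 6108 genes higher and 817 lower, quantile normalization called 4809 higher and 1974 lower, and the median difference over all genes fell from 0.30 to 0.14. Relative to the median of all genes, Mbd1 lay 0.17 higher, Elmo2 0.13, Dhrs1 0.09, and Adat3 and Scamp4 0.01. Itpkc lay at -0.07, Timm13 at -0.28 and Catsper3 at -0.68. Under quantile normalization the same 6 genes stayed called higher and Catsper3 lower, while Timm13 became called lower at -0.14 (adjusted p = 0.0334).

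**Figure D2:**
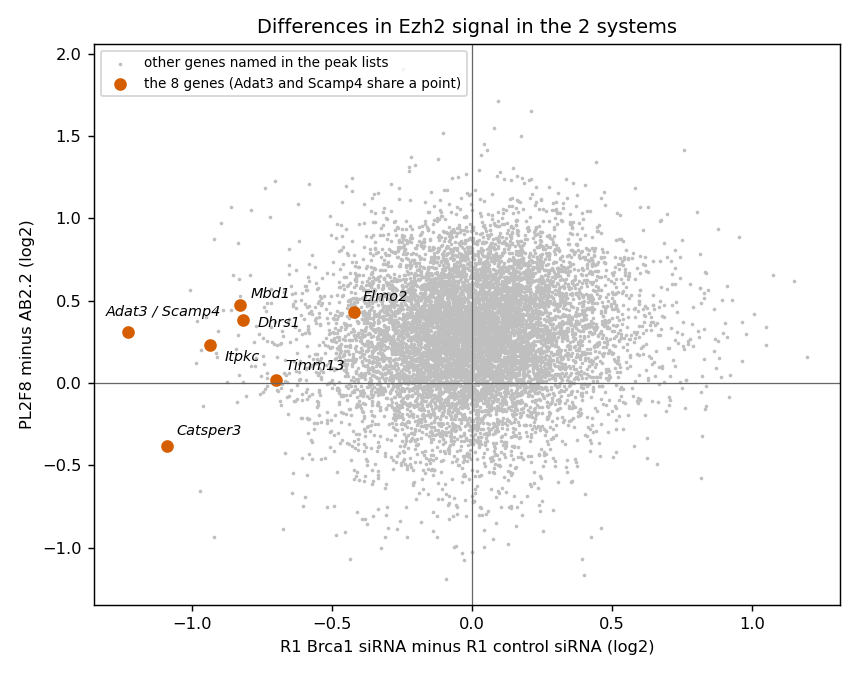
Difference between the R1 arrays (Brca1 siRNA minus control, log2, x axis) against PL2F8 minus AB2.2 (log2, y axis) for the 9612 genes, with the 8 genes in orange. The x axis chose the 8 genes, which lie between -1.23 and -0.42 on it, while on the y axis they lie between -0.38 and 0.47.

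Catsper3 encodes a pore subunit of the calcium channel of the sperm tail, a gene used in the male germ line. Its 16 probes averaged 1.00 on the R1 control array, -0.09 with Brca1 siRNA, 0.04 and 0.03 in AB2.2, and -0.35 and -0.35 in PL2F8. The R1 control array stood alone by 0.96, and both PL2F8 arrays lay under both AB2.2 arrays. PL2F8 minus AB2.2 was -0.38 ± 0.06 (SE, n = 2 arrays a line), a ratio of 0.768 (limma adjusted p = 0.000846). With median centring it was the only one of the 8 genes called lower in PL2F8, and so the only one called in the direction of the R1 drop. The highest R1 control signal stood upstream of the start, where probes at -541, -446 and -326 bp read 4.16, 4.16 and 4.08 against 0.74, 0.17 and -0.32 with Brca1 siRNA. The probes at 74 and 696 bp downstream also read lower with Brca1 siRNA, at 0.03 against 2.07 and at -0.87 against 0.85. The highest AB2.2 signal stood at the 2 probes between 500 and 1000 bp downstream, which averaged 2.59 and 2.02 in AB2.2, and -0.30 and -0.44 in PL2F8. Without those 2 probes the difference was -0.05 (adjusted p = 0.463) and the call was lost.

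Adat3 encodes the partner of Adat2 in the enzyme that turns adenosine into inosine at the wobble position of transfer RNAs, and Scamp4 encodes a secretory carrier membrane protein of the vesicle pathway. Their shared probes averaged 0.69 on the R1 control array, -0.54 with Brca1 siRNA, -0.56 and -0.68 in AB2.2, and -0.32 and -0.31 in PL2F8. The R1 control array stood alone by 1.00, the widest gap above the other arrays among all genes, and the other 5 arrays were all under 0. The choice of the genes used the R1 control array, so nothing is read from that rank. PL2F8 lay above AB2.2 by 0.31 ± 0.07 (SE, n = 2 arrays a line; limma adjusted p = 0.00408), a ratio of 1.24. That difference lay in 1 short stretch: the 5 probes from 0 to 500 bp downstream of the Adat3 start averaged -1.07 and -1.51 in AB2.2 and 0.30 and 0.25 in PL2F8. Without them the difference was 0.01 for Adat3 (adjusted p = 0.903) and, with 6 probes left out around the start of Scamp4, -0.039 (adjusted p = 0.585). Even in PL2F8 the promoter was among the lowest of the 9612 genes, at the 2.7th percentile, against the 1.7th in AB2.2 and the 60.7th on the R1 control array. Those genes are all named beside a listed peak, and Adat3 and Scamp4 are named only on the R1 control array. A low rank on the other arrays therefore says little about promoters in general.

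Itpkc encodes a kinase that adds a phosphate to inositol trisphosphate, the messenger that releases calcium from stores. Its 22 probes averaged 0.96 on the R1 control array, 0.02 with Brca1 siRNA, 0.17 and 0.05 in AB2.2, and 0.36 and 0.32 in PL2F8. Both PL2F8 arrays lay above both AB2.2 arrays, and the R1 control array lay 0.60 above all of them. PL2F8 minus AB2.2 was 0.23 ± 0.07 (SE, n = 2 arrays a line; limma adjusted p = 0.0165), a ratio of 1.17. This was the weakest of the calls: it was lost without PL2F8 replicate 1 (0.21, adjusted p = 0.145), without replicate 2 (0.25, adjusted p = 0.0833), and without the probes from -1000 to -500 bp (0.16, adjusted p = 0.0815) or from 0 to 500 bp (0.13, adjusted p = 0.117).

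Dhrs1 encodes a short-chain dehydrogenase/reductase. Its 38 probes averaged 0.47 on the R1 control array, -0.34 with Brca1 siRNA, -0.18 and -0.18 in AB2.2, and 0.26 and 0.15 in PL2F8. The order from the top was R1 control, PL2F8, AB2.2 and R1 Brca1 siRNA, and no arrays of different groups overlapped. PL2F8 minus AB2.2 was 0.38 ± 0.07 (SE, n = 2 arrays a line; limma adjusted p = 0.00134), a ratio of 1.30. The call held without each of its 8 stretches of 500 bp in turn (0.23 to 0.54), and within 1 kb of the start the difference was 0.13 (adjusted p = 0.225).

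Elmo2 encodes an adaptor that works with Dock proteins to activate Rac in cell movement and engulfment. It has 2 listed starts with 28 probes each, and their values were unlike. At the start at 165142393 (chromosome 2) the probes averaged 0.74 on the R1 control array, -0.39 with Brca1 siRNA, -0.66 and -0.75 in AB2.2, and -0.02 and -0.08 in PL2F8. At the start at 165151979 they averaged 0.11 on the R1 control array, 0.40 with Brca1 siRNA, 0.37 and 0.23 in AB2.2, and 0.55 and 0.47 in PL2F8. The R1 difference was thus -1.14 at the first and 0.29 at the second, and the drop of -0.42 of the gene as a whole mixes the pair. PL2F8 lay above AB2.2 at both, by 0.65 ± 0.07 at the first (limma adjusted p = 0.000175) and by 0.21 ± 0.07 at the second (SE, n = 2 arrays a line; limma adjusted p = 0.0305). Over all 56 probes the difference was 0.43 ± 0.07 (SE; adjusted p = 0.000862), and no single stretch of 500 bp among 12 ended the call. Whether the starts differed from each other in this was not tested. Over the whole tiled run of the second start PL2F8 minus AB2.2 was -0.04 (adjusted p = 0.506).

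Timm13 encodes a small chaperone that carries membrane proteins across the space between the mitochondrial membranes. Its 27 probes averaged -0.02 on the R1 control array, -0.72 with Brca1 siRNA, -0.30 and -0.43 in AB2.2, and -0.36 and -0.33 in PL2F8. All 6 values were under 0, the R1 Brca1 siRNA array was the lowest, and the AB2.2 and PL2F8 arrays overlapped. PL2F8 minus AB2.2 was 0.02 ± 0.07 (SE, n = 2 arrays a line; limma adjusted p = 0.839). Its R1 drop was thus from a level near that of the array median to one under it.

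Mbd1 encodes a methyl-CpG binding repressor. Its 14 probes averaged 1.18 on the R1 control array, 0.35 with Brca1 siRNA, 0.27 and 0.20 in AB2.2, and 0.70 and 0.72 in PL2F8. It had the highest value of the 8 genes on each array, PL2F8 lay between AB2.2 and the R1 control array, and the groups did not overlap. PL2F8 minus AB2.2 was 0.47 ± 0.06 (SE, n = 2 arrays a line; limma adjusted p = 0.00038), a ratio of 1.39. The call held without each stretch of 500 bp in turn (0.25 to 0.69), with the lowest value when the 5 probes from -500 to 0 bp were left out. Over the 11 probes outside the peak listed on the R1 control array the means were 0.18 and 0.10 in AB2.2 and 0.19 and 0.23 in PL2F8, so most of the difference lay at the 3 probes inside it.

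The array numbers form 2 series of 3, one of PL2F8 replicate 2 with both AB2.2 arrays, the other with both R1 arrays and PL2F8 replicate 1. Within the first series the calls of the 8 genes were the same except for Itpkc, with 5 higher and Catsper3 lower (-0.38, adjusted p = 0.0141). The lone PL2F8 array is there assumed to vary like the AB2.2 arrays. R1 control lay above the AB2.2 mean by 0.35 to 1.31 at the 8 genes. Because the R1 control array was used to choose the genes, nothing is read from that excess. These arrays are also of different series, lines and transfection, which cannot be told apart.

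The probes show where along each promoter the R1 arrays parted. The authors' list for the R1 control array gives a peak beside all 8 genes, and the list for the R1 Brca1 siRNA array gives 1 only beside Elmo2, as do those of both AB2.2 arrays and of PL2F8 replicate 2. No member had a peak on PL2F8 replicate 1. So 7 of the 8 were listed on the R1 control array and on no other, which was true of 6.22% of the 9614 named genes. The choice of the genes used both R1 arrays, so nothing is read from these peak counts. Peaks were listed for each array separately, the values of the lists are the authors', and only 5 of the 8 genes had an R1 control peak at a false discovery rate at or under 0.05.

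**Figure D3:**
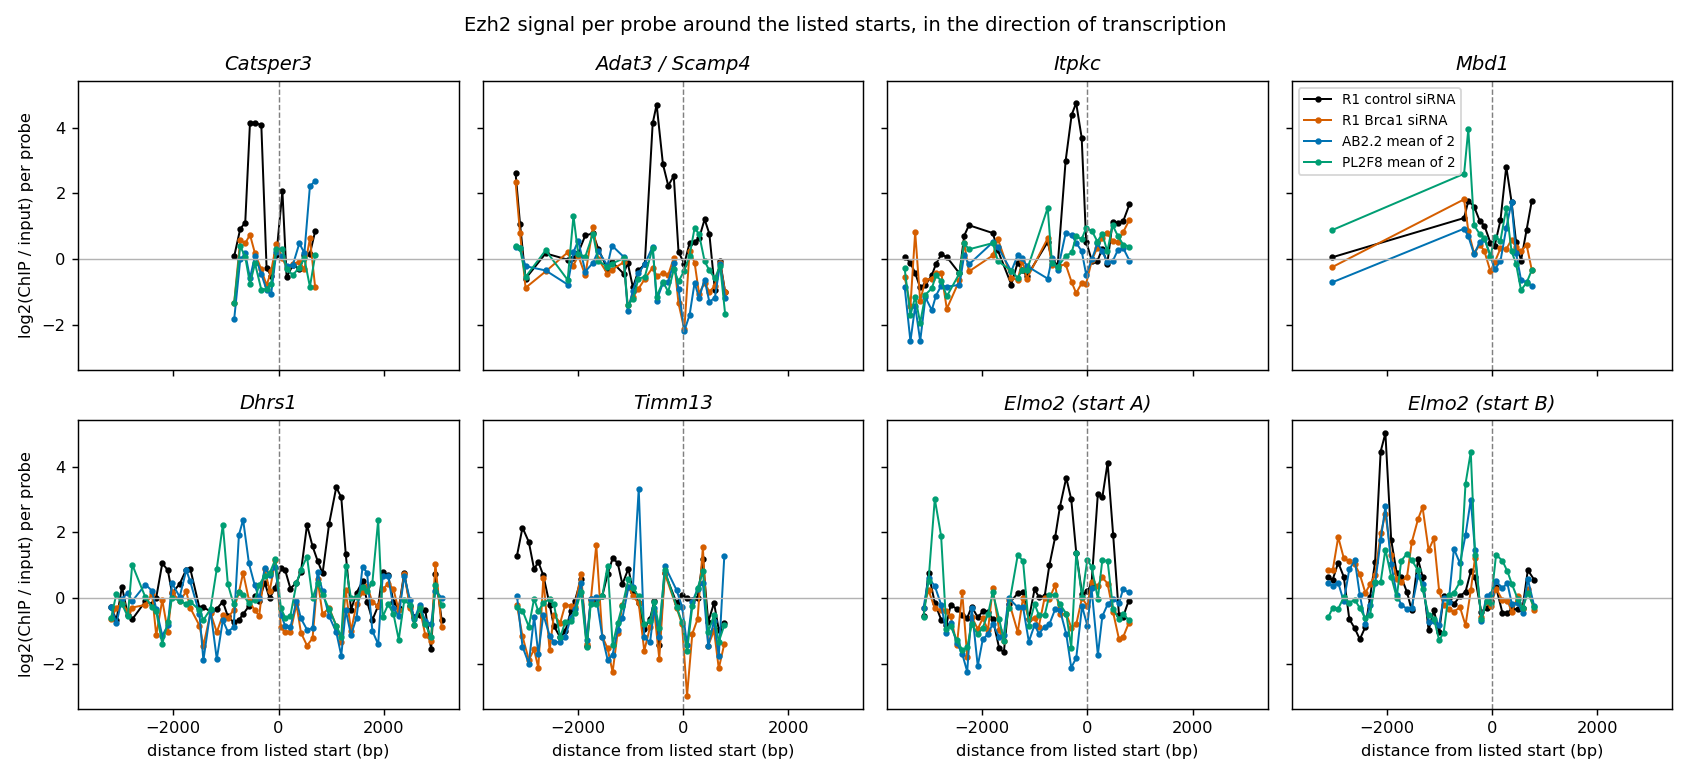
Log2 ratio of each probe (y axis) against its distance in bp from the listed start in the direction of transcription (x axis), for the 2 R1 arrays and for the means of the 2 AB2.2 and 2 PL2F8 arrays. At Catsper3, Adat3 and Itpkc the R1 control line rises above 4 just upstream of the start where the other lines stay under 1, while at Timm13 and Dhrs1 it rises less.

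Itpkc had the strongest of these peaks, from 464 to 110 bp upstream of the start (chromosome 7, 28013726 to 28014080 in the files' coordinates; false discovery rate 0.00129, rank 1219 by score of 6250 peaks on that array). Its probes at -415, -300, -215 and -110 bp read 2.99, 4.40, 4.76 and 3.70 on the R1 control array and -0.16, -0.71, -1.04 and -0.74 with Brca1 siRNA. Inside the peak the means were 3.96 and -0.66 in R1, 0.57 and 0.56 in AB2.2, and 0.45 and 0.34 in PL2F8. Only the R1 control array was high there. Gene and interval were both chosen through that array, so nothing is read from its high value in any of these peaks. PL2F8 minus AB2.2 was -0.17 ± 0.19 in the peak (SE, n = 2 arrays a line, limma adjusted p = 0.454). The peak itself thus did not pass the test, while the wider window did. Outside the peak the R1 difference of Itpkc was -0.12 over 18 probes.

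The peak of Adat3 and Scamp4 ran from 575 to 126 bp upstream of the Adat3 start (chromosome 10, 80065049 to 80065498; false discovery rate 0.00632, rank 1850). Inside it the means were 3.30 on the R1 control array, -0.33 with Brca1 siRNA, -0.44 and -0.53 in AB2.2, and -0.59 and -0.53 in PL2F8. The other 5 arrays lay together, and PL2F8 minus AB2.2 was -0.078 ± 0.19 (SE, n = 2 arrays a line; limma adjusted p = 0.731). Here 22 of the 26 probes of the window were lower with Brca1 siRNA, and the 21 probes outside the peak still differed by -0.66. Such counts were 10 of 16 at Catsper3, 14 of 22 at Itpkc and 28 of 38 at Dhrs1. At Elmo2 they were 22 of 28 at the start at 165142393 and 16 of 28 at the start at 165151979. The share over all genes was not counted.

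Catsper3 had the faintest of them, from 631 to 277 bp upstream (chromosome 13, 55885308 to 55885662; false discovery rate 0.198, the highest in that list, rank 5807). Yet the mean of its 4 probes, 3.38 on the R1 control array, was the second highest of the 8 genes. It was 0.27 with Brca1 siRNA, -0.25 and -0.14 in AB2.2, and -0.51 and -0.38 in PL2F8. PL2F8 lay -0.25 ± 0.19 from AB2.2 (SE, n = 2 arrays a line; limma adjusted p = 0.28), which did not pass the test.

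At 4 of the 8 genes, Elmo2, Dhrs1, Timm13 and Mbd1, the interval of the R1 control peak was called higher in PL2F8, as were 53.8% of the 6250 R1 control peaks, and at none was it called lower (8.03% of the peaks). In Elmo2 it lay 148 to 487 bp downstream of the start at 165142393, with means of 3.08 and 0.25 in R1, -0.52 and -0.74 in AB2.2, and 0.56 and 0.41 in PL2F8, a difference of 1.11 ± 0.20 (SE; limma adjusted p = 0.000998). In Dhrs1 it lay 492 to 1276 bp downstream, with 1.97 and -0.61 in R1, -0.57 and -0.58 in AB2.2, and 0.10 and 0.00 in PL2F8, a difference of 0.63 ± 0.19 (SE; limma adjusted p = 0.0149). In both genes PL2F8 lay well under the R1 control array.

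In Timm13 the peak lay 3199 to 2925 bp upstream, outside the 2 kb window that chose the gene, and read 1.72 and -1.09 in R1, -1.06 and -1.22 in AB2.2, and -0.57 and -0.46 in PL2F8. PL2F8 was higher there by 0.63 ± 0.19 (SE, n = 2 arrays a line; limma adjusted p = 0.0165), though still under 0, which the window did not show. Inside the window 23 of 27 probes were lower with Brca1 siRNA, and the drop was deepest in the 5 probes from -1500 to -1000 bp, at -1.81, against 0.13 from -2000 to -1500 bp and -0.27 from -1000 to -500 bp. A single probe at -840 bp read 3.46 and 3.19 in AB2.2, and -0.15 and -0.16 in R1 and 0.17 and -0.07 in PL2F8.

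Mbd1 was the exception in level. In its R1 control peak, 529 to 290 bp upstream (false discovery rate 0.141), the means were 1.54 and 0.95 in R1, 0.61 and 0.56 in AB2.2, and 2.57 and 2.49 in PL2F8. PL2F8 was here higher than the R1 control array, and PL2F8 minus AB2.2 was 1.94 ± 0.19 (SE, n = 2 arrays a line; limma adjusted p = 5.77e-05), a call that 53.8% of these intervals shared. The probe at -449 bp read 4.00 and 3.92 in PL2F8 against 0.75 and 0.64 in AB2.2, yet the authors list no peak at this gene on either PL2F8 array. The R1 drop of Mbd1 was larger outside the peak, at -0.90 over 11 probes, and 12 of its 14 probes were lower with Brca1 siRNA.

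**Figure D4:**
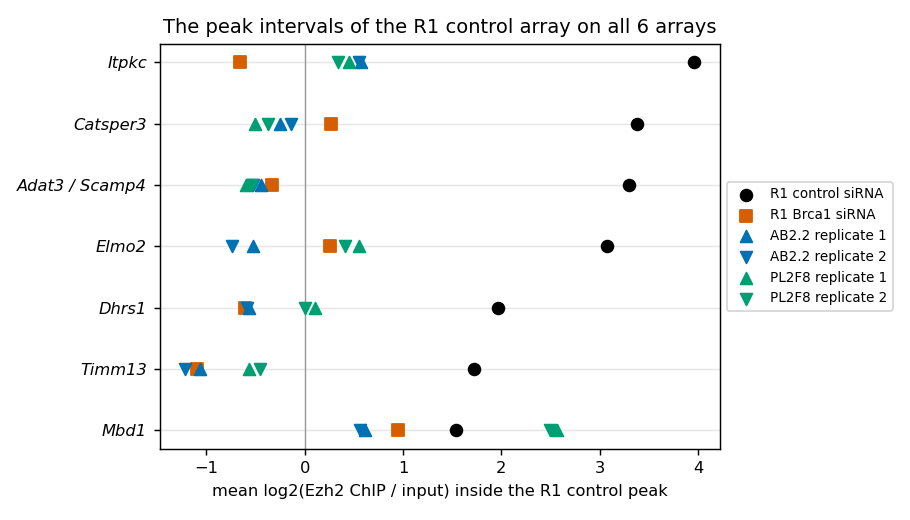
Mean log2 ratio of Ezh2 ChIP over input inside the peak listed on the R1 control array (x axis) for each gene (y axis), 1 point for each of the 6 arrays. The R1 control array, on which these peaks were called, lies between 1.54 and 3.96. It is the highest point except at Mbd1, where the PL2F8 arrays reach 2.57 and 2.49.

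Around the second Elmo2 start the arrays differed in which stretch was high. Probes at -2112 and -2022 bp read 4.47 and 5.03 on the R1 control array, and 1.97 and 2.56 with Brca1 siRNA. They read 2.07 and 3.10 on AB2.2 replicate 1, 1.45 and 2.49 on replicate 2, 0.34 and 1.48 on PL2F8 replicate 1 and 0.64 and 1.48 on its replicate 2. They lie just outside the 2 kb window, and the authors list a peak there, from 2161 to 1102 bp upstream, on the R1 Brca1 siRNA array (false discovery rate 0.0113) and not on the control array. Both AB2.2 lists give a peak from 773 to 322 bp upstream of this start. The peak of PL2F8 replicate 2 lay at the other start, from 262 bp upstream to 382 bp downstream (false discovery rate 0.191).

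Neighbouring genes were read with the same windows. The start listed for 2610027L16Rik (Nop9 in RefSeq) lies 100 bp from that of Dhrs1, and its values of 0.47 on the R1 control array and -0.36 with Brca1 siRNA rest on nearly the same probes. Adck4 (Coq8b in RefSeq) starts 4415 bp from Itpkc, shares no probe with it and read -0.25 on the R1 control array and -0.59 with Brca1 siRNA. Among genes that share no probe with the 8, those nearest to their median profile by Euclidean distance over the 6 arrays were Olfr632 (0.139), Plaur (0.209), Ccdc39 (0.214), Cxcr7 (0.25) and Faim3 (0.256). Olfr632, an olfactory receptor gene, read 0.72 on the R1 control array, -0.25 with Brca1 siRNA, -0.16 and -0.23 in AB2.2, and -0.03 and 0.05 in PL2F8.

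The R1 differences of relatives and partners of the 8 genes lay around 0. Of 88 other genes in 8 lists of families and pathways, 36 were measured, and their R1 differences had a median of -0.05 and ran from -0.55 to 0.58. By at least 0.5, 2 were lower with Brca1 siRNA, Hsd17b10 (-0.51) and Dock5 (-0.55), and 1 was higher, Elmo1 (0.58), which 2.78% and 3.28% of all genes were. In PL2F8, 22 were called higher, 4 lower and 10 not, where 63.5% of all genes were called higher and 8.5% lower. Their median difference was 0.29 beside 0.30 over all genes. The same shares over all genes stand beside each call of a single relative named below. The 4 lower were Itpka, Dock5, Timm17a and Zbtb38.

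Within the families, Catsper4, another pore subunit of the sperm channel, read 0.03 on the R1 control array and 0.47 with Brca1 siRNA, and was called higher in PL2F8 by 0.34 (limma adjusted p = 0.0024), the opposite call to Catsper3. Adat2, the partner of Adat3, read 0.03 and 0.18 in R1 and differed by -0.01 between the lines (adjusted p = 0.874). Of the other Scamp genes, Scamp1, Scamp2 and Scamp5 were measured and none passed the test. Elmo1, which like Elmo2 pairs with Dock proteins, was called higher in PL2F8 by 0.31 (adjusted p = 0.00318), as were Dock1, Dock3, Dock4 and Rhog, while Dock5 was lower.

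Among the inositol phosphate kinases, Itpka was called lower by -0.41 (limma adjusted p = 0.00856), and Itpkb, Ipmk, Ippk and Itpk1 were called higher. Of the mitochondrial import genes, Timm10, a small chaperone like Timm13, was called higher by 0.48 (adjusted p = 0.000383), Timm17a was lower and Timm17b did not pass. In the list around methyl-CpG binding, which also holds DNA methyltransferases and the histone H3 methyltransferase Setdb1, Dnmt3b was called higher by 0.72 (adjusted p = 0.000154), with Setdb1 and Zbtb4, Zbtb38 was lower by -0.59 (adjusted p = 0.000149), and Mbd6 and Dnmt3a did not pass.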

How the data were processed

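Ezh2 ChIP against input was measured on 6 arrays of mouse ES cells. The authors deposited 1 log2 ratio of ChIP over input per probe and array for 714900 probes. Its normalization, the software and the genome build: not given in the sources used here. Array medians lay between 0.02 and 0.04. The authors' deposited peak lists, 1 per array, give each peak a score on the log2 scale and a false discovery rate (a q-value, as a fraction), per the file headers, and the nearest start with its gene symbol. The number of arrays limits the precision.

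Each array was centred on its median, with no loess or quantile step. A gene's value was the mean of its probes within 2 kb of any start listed for it, at least 5 probes, with a probe placed at the single position in its identifier. PL2F8 was tested against AB2.2 by limma 3.58.1 (lmFit, eBayes, R 4.3.3) with two-sided p-values, adjusted by Benjamini-Hochberg over 9612 genes at a threshold of 0.05, and the peak intervals of the R1 control array with at least 3 probes likewise over 6250 intervals. SD and SE are over arrays; SE is limma's moderated one. Scripts ran in Python 3.11.15 with numpy 2.4.6, pandas 2.3.3 and matplotlib 3.10.9, and the fit was tested on simulated data. The members and lists were chosen with earlier results of these data known. Genes named are the 8 members, genes that start within 2 kb of them (Adck4, further off, was added as a neighbour of Itpkc after its values were seen), the 5 nearest profiles and the members of the family lists. Replicate numbers are not stated to pair the arrays. Brca1 and Ezh2 have no named region. The promoter of Mbd1 is not printed.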

Additional observations from a re-analysis of the deposited data

Results flagged for a closer look

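Averaged over their windows, 6 genes moved in opposite directions in the R1 pair and in the pair of lines. Signal was lower with Brca1 siRNA, and both PL2F8 arrays lay above both AB2.2 arrays. PL2F8 minus AB2.2 was 0.31 at Adat3 and at Scamp4, which share their probes, 0.38 at Dhrs1, 0.23 at Itpkc, 0.43 at Elmo2 and 0.47 at Mbd1. The difference between the systems was not tested, since R1 had 1 array a condition. The R1 direction was fixed by the choice of the genes, and 74.1% of all genes had both PL2F8 arrays above both AB2.2 arrays. Inside the R1 control peaks PL2F8 minus AB2.2 was -0.078 at Adat3 and Scamp4 and -0.17 at Itpkc. It was 0.63 at Dhrs1, 1.11 at Elmo2 and 1.94 at Mbd1. At the Elmo2 start at 165151979 both differences were above 0, at 0.29 in R1 and 0.21 between the lines.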

How the results depend on the processing

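Under 12 planned settings, 89 of 94 differences of the 8 genes kept their call (higher, lower or not called). Among these, Timm13 (0.02, not called) changed sign within 1 kb (-0.23) and without AB2.2 replicate 2 (-0.05). Itpkc lost its call with the median of probes (0.26, adjusted p = 0.0909) and without either PL2F8 array, and Dhrs1 within 1 kb (0.13). Timm13 turned to -0.14 with quantile normalization, which made 2 members lower; with at least 20 probes, which leaves out Catsper3 and Mbd1, 0 were lower. Genes called lower numbered 817, and 1974 with quantile normalization, 471 with the median of probes and 482 to 1191 with 1 array left out (513 without PL2F8 replicate 1, 482 without replicate 2, 870 without AB2.2 replicate 1, 1191 without replicate 2). The causes were not tested.

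Alternatives chosen after seeing the data gave -0.078 at Adat3 and Scamp4, -0.17 at Itpkc and -0.25 at Catsper3 inside the R1 control peaks, and -0.039 at Scamp4 without the probes from 0 to 500 bp; over the whole tiled run Timm13 was 0.18 (adjusted p = 0.02).

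With the replicate number as a block, 6663 genes were higher and 1026 lower and no call of the 8 genes changed. The AB2.2 and PL2F8 deviations of same-numbered arrays correlated at 0.245 across genes, with 2 pairs, so the numbers were not taken to pair the arrays.

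The 40 R1 values counted for the 8 genes stayed under 0, and 17 moved by more than the spread of the duplicates. With each start taken separately, the count held only the Elmo2 start at 165142393 (-1.14). The start at 165151979, left out of it, had 0.29. With the median of probes the drop was -0.26 at Catsper3, -0.46 at Itpkc and -0.19 at Elmo2. At a false discovery rate at or under 0.05, members with a peak were 5 on the R1 control array and 0 on AB2.2 replicate 2 and PL2F8 replicate 2, and within 1 kb 0 on the R1 Brca1 siRNA array.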
